A study of Mus musculus with 19 samples.

Results

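Humanized hotspots cut on the SPRT homolog are positions in the testis of a hybrid male mouse where meiotic breaks are placed by a humanized PRDM9 and fall mainly on the chromosome inherited from Mus spretus. They were chosen by measured values: autosomal hotspots of the HUM/SPRETUS hybrid that the authors attributed to the humanized allele, with a DMC1 B6 fraction below 0.25, meaning that under 25% of the DMC1 reads came from the B6 chromosome. This gave 614 hotspots, of 4485 autosomal hotspots of the humanized allele and 15727 autosomal hotspots of all alleles in that hybrid. A B6 fraction was listed for 3302 of the humanized hotspots. Of these, 1429 had 25 to 75% of their DMC1 reads from B6, ends included, and are called matched, and 1259 had over 75% and are called B6-cut.

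The study asked what happens to breaks in sterile hybrid mice when the PRDM9 binding array is exchanged for one that neither wild-type parental strain carries. HUM/SPRETUS males were F1 offspring of B6 females heterozygous for the humanized allele and SPRET/EiJ (SPRT) males, and the humanized allele is mouse Prdm9 with the zinc finger array of the human PRDM9 B allele in place of its own. Every group was whole adult testis, a mixture of germ cells of all stages and somatic cells. HUM/SPRETUS had 1 DMC1 library, 3 H3K4me3 ChIP samples and 3 inputs, of which 1 of each kind is labelled as belonging with replicate 1. The comparison groups were B6/SPRETUS (the same cross with the wild-type B6 allele, 1 DMC1 library, 2 ChIP samples and 2 inputs), CAST/SPRETUS (the same cross with an engineered castaneus allele, of which the DMC1 library was used) and HUM/STUS (the humanized allele in a hybrid of B6 and the musculus strain STUS, 1 DMC1 library). All B6xSPRETUS hybrids share the SPRT allele of Prdm9 beside the one named first, and HUM/STUS carries the STUS allele beside the humanized one.

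PRDM9 binds DNA through its zinc fingers and places H3K4me3, a methyl mark on histone H3, on the nucleosomes around its site, and SPO11 then cuts some of the marked sites. The ends of a break are resected and the single strands are coated by the recombinase DMC1, so precipitated single-stranded DNA marks breaks whose repair is under way. In an F1 hybrid, SNPs assign reads to the B6 or the SPRT homolog. An allele that has acted in a lineage for long tends to lose its own sites there, because a cut copy is repaired from the uncut one, whereas the human array has no such history in mice.

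With 1 DMC1 library per genotype and 1 H3K4me3 value per hotspot, taken here as a pool of the samples of that genotype, no difference between hotspot classes was tested. Medians are given with 95% order-statistic intervals and shares with 95% Wilson intervals. These describe the spread over the hotspots of a library, not over mice. A selection on a low DMC1 fraction also selects for low values by sampling, and any other measure of the same hotspots is then expected to be less extreme.

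One of the 614 hotspots (0.163%) had its center in a promoter for which a reference sequence was given, against 4 of all 3302 humanized hotspots with a fraction (0.121%), and it was chosen after the positions had been compared. It lies on chromosome 2 at position 170194075, 22 bp before the start of the long noncoding RNA gene Gm17619, which is on the minus strand. The 250 bases before the gene's start, from RefSeq GRCm38.p6, run 5′ to 3′ on the minus strand at chr2:170194054-170194303, and the hotspot center is base 229. They are shown because this is the B6 sequence, the homolog that received few breaks. Capitals mark the only match on either strand to CCTCCCT, the core of the human hotspot motif, here as its reverse complement.

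Gm17619 promoter: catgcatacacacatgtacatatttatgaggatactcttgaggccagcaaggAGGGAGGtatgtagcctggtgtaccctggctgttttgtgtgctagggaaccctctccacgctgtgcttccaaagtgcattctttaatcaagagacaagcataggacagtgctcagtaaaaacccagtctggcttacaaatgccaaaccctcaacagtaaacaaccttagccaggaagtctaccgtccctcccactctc

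The match covers bases 53 to 59 and ends 170 bp from the center. The longer degenerate motif (CCNCCNT, then any 2 bases, then CCNC) had 0 matches in these bases. Over the bases before the start of all 32851 promoters, the core occurred on either strand in 13.3% and the longer motif in 5.32%, so a core match is common. A match is a description of the letters and not of a binding site. At this hotspot the DMC1 signal, the authors' value for DMC1-bound DNA at a hotspot, was 40.7, with 5.45% of reads from B6. The H3K4me3 enrichment over input was 5.13, and 28.0% of 379 SNP-carrying H3K4me3 reads came from B6 (Wilson interval 23.7 to 32.7%). In HUM/STUS the position was again a humanized hotspot, with 9.76% of DMC1 reads from B6.

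The 614 hotspots made up 18.6% of the humanized hotspots with a B6 fraction (17.3 to 19.96%), against 38.1% that were B6-cut (36.5 to 39.8%). Their DMC1 B6 share, the value that chose them, had a median of 13.8% (12.8 to 14.7%), and 10% of them were below 4.04%. Named after its values were seen, a single hotspot was listed at 0%, on chromosome 2 at position 170109581 within Zfp217, a zinc finger repressor gene, with a DMC1 signal of 27.4. B6-cut hotspots lay further past their limit of 75%, with a median of 92.9% from B6, which leaves 7.14% for SPRT.

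The limit fell within a continuous range of values. Just below it were hotspots at 24.8% on chromosome 9 at position 119710750 within the sodium channel gene Scn10a, on chromosome 5 at position 13129836 within Sema3a, a secreted axon guidance protein, and on chromosome 14 at position 102994837 within 4933432I03Rik, a long noncoding RNA gene. Their DMC1 signals were 51.8, 41.2 and 82.8, and H3K4me3 gave 52.4, 37.1 and 68.0% from B6. At the limit, 13 hotspots had exactly 25% and were not included. The 3 first of these by position lay on chromosome 1 at position 64196387 within Gm35880, on chromosome 3 at position 122128717 within the retinal transporter gene Abca4, and on chromosome 3 at position 154305780 at 0.508 kb from the homeobox gene Lhx8. Their DMC1 signals were 18.8, 29.3 and 17.5, and H3K4me3 gave 50.7, 33.3 and 51.2% from B6.

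DMC1 signal at the SPRT-cut hotspots had a median of 39.2 (35.7 to 42.3), with quartiles of 25.1 and 68.6 and a range from 8.82 to 299.7. Matched humanized hotspots had a median of 33.6 (31.8 to 36.0) and B6-cut hotspots 29.8 (28.5 to 31.3). The SPRT-cut median exceeded that of matched hotspots on 13 of 19 autosomes. The paper cites work in which breaks opposite an eroded copy were repaired more slowly. DMC1 signal can thus reflect how long breaks last as well as their number, and these cannot be told apart here. This signal comes from the library that chose the members and is a description only. It was concentrated at the lowest B6 shares. The 88 hotspots below 5% had a median signal of 91.5 and the 122 from 5 to 10% one of 45.7, whereas the ranges from 10 to 25% had medians between 31.1 and 33.9. At the other end, humanized hotspots with 90 to 100% from B6 also had a higher median signal (35.3) than those with 75 to 90% (22.1). Across the 614 hotspots, Spearman's rho between DMC1 B6 share and DMC1 signal was -0.348, against -0.0816 over all 3302 humanized hotspots with a fraction, which hold both ends. Both values come from the same library and stronger hotspots have more reads, so these points share their depth.

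H3K4me3 was measured with another antibody and in other libraries. Enrichment at SPRT-cut hotspots had a median of 5.21 (4.90 to 5.40) and a range from 0.513 to 22.8, against 6.99 (6.75 to 7.27) at matched and 4.94 (4.78 to 5.14) at B6-cut hotspots. The SPRT-cut median was below the matched median on 19 of 19 autosomes. Input coverage hardly differed, with medians of 25, 26 and 26, while ChIP coverage had medians of 277, 390 and 274 in the same order. SPRT-cut hotspots thus had less H3K4me3 than matched ones by these medians, and a higher DMC1 signal. DMC1 signal per unit of enrichment had medians of 8.61 (7.98 to 9.11) at SPRT-cut, 5.45 (5.24 to 5.73) at matched and 6.66 (6.43 to 6.99) at B6-cut hotspots. Across the 614 hotspots DMC1 signal was related to enrichment (rho 0.5002, over all 3302 0.478), whereas enrichment had little relation to the DMC1 B6 share (rho -0.0574, over all -0.0850). Hotspots are not replicates, and these points share a library.

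**Figure D1:**
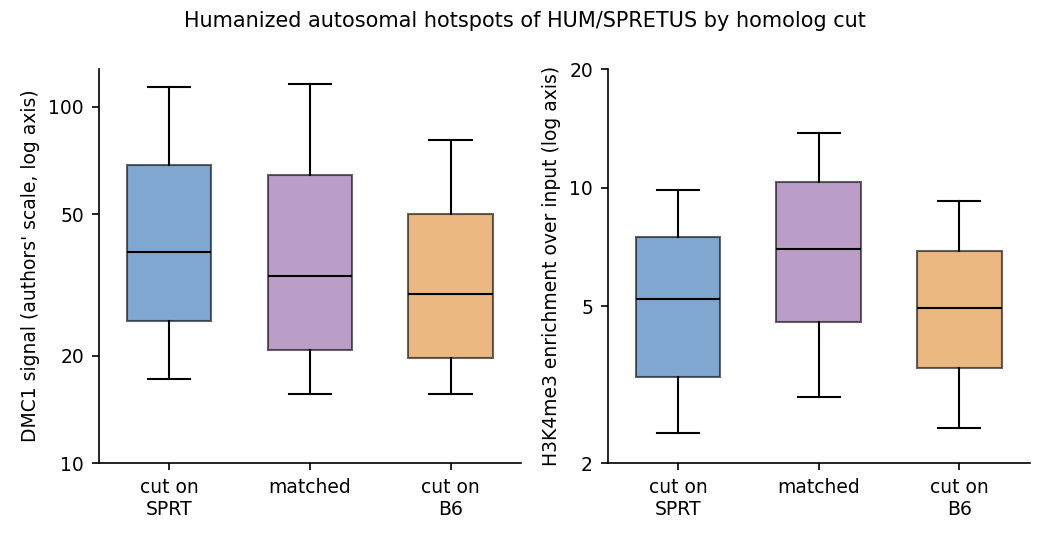
DMC1 signal (left) and H3K4me3 enrichment over input (right), both on log axes, at humanized autosomal hotspots of HUM/SPRETUS that were cut on SPRT (n = 614), matched (n = 1429) or cut on B6 (n = 1259). Boxes span the quartiles with the median as a line, and whiskers reach the 10th and 90th percentiles. The SPRT-cut class has the highest DMC1 median (39.2) and the matched class the highest H3K4me3 median (6.99).

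Reads carrying SNPs were numerous for H3K4me3, with a median of 434 per SPRT-cut hotspot and at least 31, so all 614 passed the minimum of 20. From the SPRT homolog the median number of reads was 296.5 (277 to 319) at SPRT-cut hotspots, higher than the 256 (245 to 269) at matched hotspots. From the B6 homolog it was 123.5 (115 to 139) at SPRT-cut against 333 (318 to 344) at matched hotspots. The lower H3K4me3 at SPRT-cut hotspots therefore lay on the B6 side. B6-cut hotspots mirrored this, with medians of 47 reads (45 to 49) from SPRT and 396 (383 to 409) from B6.

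The H3K4me3 reads leaned to SPRT at most SPRT-cut hotspots but less than the DMC1 reads. The median H3K4me3 share from B6 was 33.0% (31.3 to 34.5%), with quartiles of 22.4 and 43.3% and a range from 5.57 to 76.0%. It was below 50% at 554 of 614 hotspots (90.2%), against 26.8% of all humanized hotspots with a DMC1 fraction. At 503 (81.9%) the Wilson interval of the hotspot's own reads lay below 50%, against 18.5% of all. The same limit of 25% was met at 186 hotspots (30.3%, 26.8 to 34.0%), against 5.69% of all 3302 humanized hotspots with a DMC1 fraction. This share depends on an offset between the assays. With the H3K4me3 limit raised to 34.7% by the median difference seen at matched hotspots, an alternative chosen after seeing the data, it was 54.7%, against 10.7% of all. With the whole interval below the unchanged limit of 25% there were 134 (21.8%), against 4.06% of all. At 366 hotspots (59.6%) the interval lay above 25%, against 92.4% of all, so for these the difference between the assays exceeded the counting error of H3K4me3. Intervals cover counting error only, and the number of reads behind the DMC1 fraction is unknown.

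Among matched hotspots 2 had an H3K4me3 share from B6 below 25%, and among the 1259 B6-cut hotspots none did (upper Wilson bound 0.304%). Named after their values were seen, the 2 lay on chromosome 4 at position 57240036 within the tyrosine phosphatase gene Ptpn3 (21.8% of 216 reads) and on chromosome 13 at position 16759541, 97.9 kb from Sugct (21.4% of 145 reads). Of the 188 hotspots below 25% by H3K4me3, 186 were thus also below 25% by DMC1. A single SPRT-cut hotspot had over 75% of its H3K4me3 reads from B6. Also named after its values were seen, it had an intergenic center at position 79133290 of chromosome 17 and 42.9 kb from Qpct, with 76.0% of 454 reads against 21.4% of DMC1 reads and a weak DMC1 signal of 14.8.

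Agreement between the assays followed the DMC1 share. Below 5% from B6 by DMC1, the median H3K4me3 share was 17.2% and 72 of 88 hotspots (81.8%, 72.5 to 88.5%) were below 25%. From 5 to 10% the median was 24.9% and 61 of 122 (50%) were below 25%, so that 63.3% were with a limit of 10% by DMC1. The next ranges of 5 percentage points had medians of 32.8, 40.5 and 44.5% and shares below 25% of 19.8, 12.4 and 7.80%. Just outside the limit, at 25 to 30% by DMC1, the H3K4me3 median was 49.6%. Over the 614 hotspots Spearman's rho between the fractions was 0.669 and Pearson's r 0.664, against 0.926 and 0.929 over all 3302, whose range is not limited by the rule. Hotspots are not replicates, and whether both assays used the same SNPs is not given in the sources used here.

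**Figure D2:**
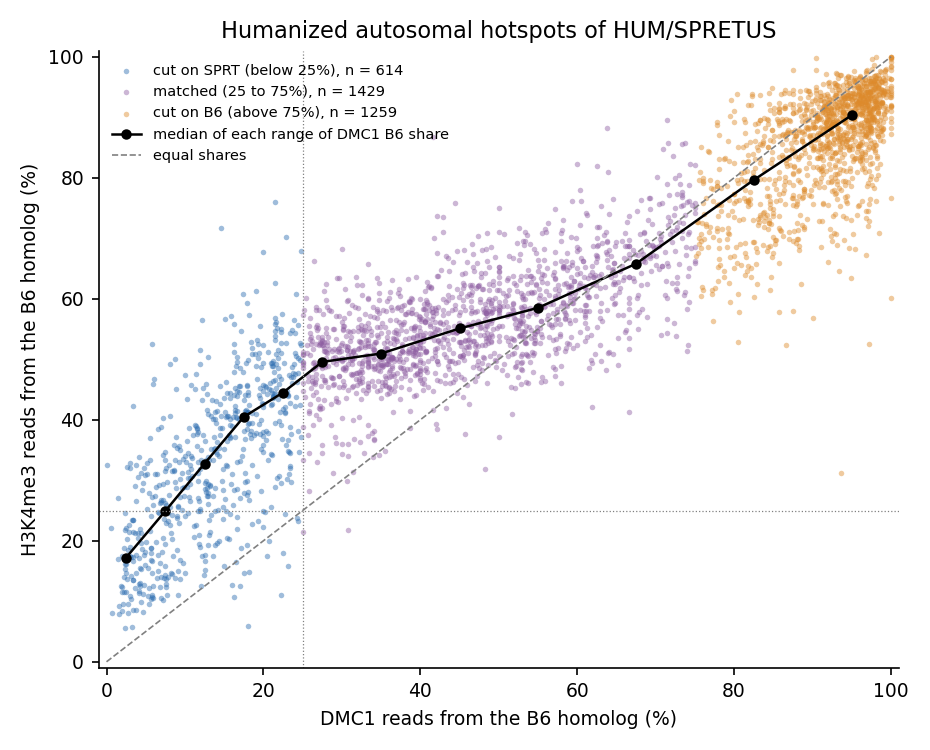
Share of H3K4me3 reads from the B6 homolog against the share of DMC1 reads from B6, both in percent, with 1 point per humanized autosomal hotspot of HUM/SPRETUS (n = 3302). The black line joins medians within ranges of the DMC1 share, the dashed line marks equal shares and dotted lines mark 25%. SPRT-cut hotspots lie mostly above the dashed line, with H3K4me3 medians from 17.2% below 5% by DMC1 to 44.5% at 20 to 25%.

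At 600 of 614 SPRT-cut hotspots (97.7%) the B6 share was higher by H3K4me3 than by DMC1, against 60.7% of all humanized hotspots with a fraction and 81.7% of matched ones. The difference at SPRT-cut hotspots, H3K4me3 minus DMC1, had a median of 19.9 percentage points (18.9 to 21.1). At matched hotspots, where neither assay was selected to be extreme, the B6 share was also higher by H3K4me3, by a median of 9.70 points (8.90 to 10.5). At B6-cut hotspots the B6 share was lower by H3K4me3, with a median difference of -4.58 points (-5.07 to -4.12). On the less cut homolog, the median H3K4me3 share was 33.0% at SPRT-cut but 11.7% at B6-cut hotspots. Beyond their limit by H3K4me3 were 30.3% of SPRT-cut and 86.7% of B6-cut hotspots (84.7 to 88.5%). With both limits raised by the offset of 9.70 points seen at matched hotspots, to 34.7 and 84.7%, an alternative chosen after seeing the data, the shares were 54.7 and 65.4%, so much of the contrast between the classes depends on this offset. The offset was not constant over matched hotspots. At 25 to 30% from B6 by DMC1 the H3K4me3 median was 49.6%, and at 60 to 75% it was 65.8%.
The classes were also set side by side at equal DMC1 shares, where the order turned with the offset. Where the less cut homolog gave 5 to 10% of DMC1 reads, its H3K4me3 median was 24.9% (22.5 to 26.8%) at SPRT-cut and 11.1% (10.4 to 11.8%) at B6-cut hotspots. At 20 to 25% the values were 44.5 and 26.5%. With the 9.70 points taken off the B6 share and added to the SPRT share, also chosen after seeing the data, the values were 15.2 and 20.8% at 5 to 10% and 34.8 and 36.2% at 20 to 25%, and those of the whole classes, 33.0 and 11.7%, were 23.3 and 21.4%. The same offset was used at all DMC1 shares, although it was not constant over matched hotspots and the difference was -4.58 points at B6-cut ones. The turned order is thus as uncertain as the first, and no order of the classes is given for the less cut homolog. Whether alignment to the B6 reference favours B6 reads was not tested.

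In another genotype of the same cross, the B6 allele of B6/SPRETUS had 1564 hotspots cut on SPRT by the same limit, which was 61.6% of its 2541 with a fraction. Of the 1562 with at least 20 SNP-carrying reads, 57.9% had an H3K4me3 share from B6 below 25%, against the 30.3% of the humanized allele. The shares of the B6 allele's hotspots rest on fewer SNP-carrying reads, with a median of 208 against 434, and so have more counting error. The B6 allele's hotspots were also further from the limit, with a median DMC1 share of 4.24% from B6 against 13.8%. The values were also set side by side within ranges of the DMC1 share. Below 5%, 82.9% of B6-allele hotspots (80.3 to 85.3%) and 81.8% of humanized ones were below 25% by H3K4me3, at 5 to 10% the values were 41.5 and 50%, and at 10 to 15% they were 28.0 and 19.8%. At 15 to 20% they were 12.1 and 12.4%, and at 20 to 25% they were 4.72 and 7.80%. The intervals of the alleles overlapped in all 5 ranges of 5 percentage points, which does not show that the alleles are equal. The lowest range held 862 hotspots of the B6 allele and 88 of the humanized allele.

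**Figure D3:**
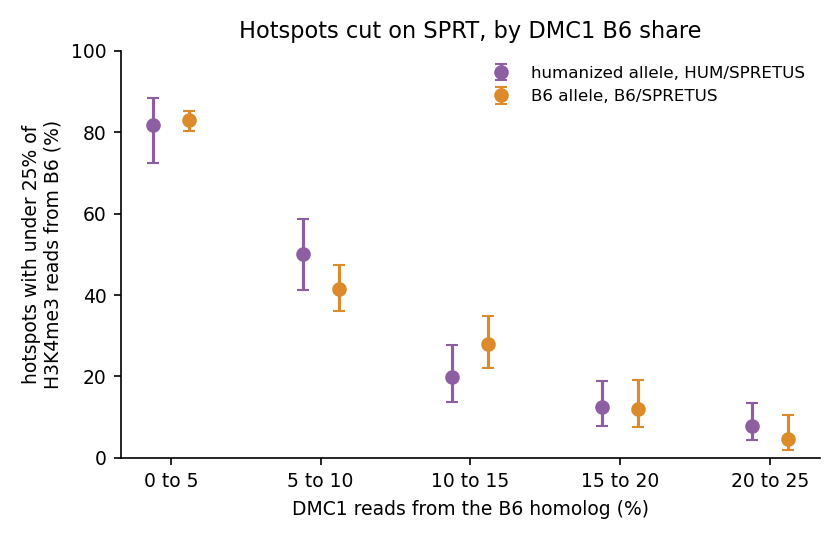
Percentage of SPRT-cut hotspots with under 25% of H3K4me3 reads from B6, by range of the DMC1 share from B6, for the humanized allele of HUM/SPRETUS and the B6 allele of B6/SPRETUS. Bars are 95% Wilson intervals. The percentage is 81.8% in the lowest and 7.80% in the highest range for the humanized allele, and the intervals of the alleles overlap in each range.

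Hotspots marked on SPRT by both assays were the stronger ones by DMC1. The 186 below 25% by H3K4me3 had a median DMC1 signal of 54.4 (44.7 to 62.2) and the other 428 one of 35.9 (33.6 to 39.2). Enrichment had medians of 4.77 (4.28 to 5.22) and 5.37 (4.99 to 5.80), so the intervals overlapped. The share below 25% by H3K4me3 was 19.01% at SPRT-cut hotspots with a DMC1 signal of up to 24.4, 26.3% between 24.4 and 47.7 and 40% above that. These limits split all humanized hotspots with a fraction into equal parts, of which 2.54, 5.27 and 9.26% were below 25% by H3K4me3. The median DMC1 share from B6 of SPRT-cut hotspots over the same ranges was 17.1, 14.1 and 9.60%. The part of the DMC1 share in this relation was not separated from that of the signal.

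The strongest SPRT-cut hotspot was intergenic, at position 31141215 of chromosome 8, and 7.90 kb from Rnf122, a ubiquitin ligase gene. Its DMC1 signal was 299.7 with 1.64% from B6, its enrichment 10.3, and 9.26% of 896 H3K4me3 reads came from B6 (7.54 to 11.3%). The next lay on chromosome 3 at position 153491046 within the sialyltransferase gene St6galnac3, with a signal of 287.9, 4.25% from B6 by DMC1 and 12.6% of 762 reads by H3K4me3. Both assays placed these hotspots on SPRT. Exons and introns were not distinguished for hotspots within genes.
On chromosome 3 at position 151663593, 55.1 kb from the nearest gene, the signal was 236.6, with 3.06% from B6 by DMC1 and 19.03% of 620 reads by H3K4me3. Within Zdhhc14, of the palmitoyltransferase family, on chromosome 17 at position 5645243, it was 219.4, with 1.89 and 12.6%. Within Fig4, a phosphoinositide phosphatase gene, on chromosome 10 at position 41273334, it was 204.4 with 2.34% by DMC1, and the H3K4me3 share of 5.57% (3.74 to 8.22%, 413 reads) was the lowest of the 614.

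At the remaining 3 of the 8 strongest the H3K4me3 share from B6 was above 25%. At position 116807227 of chromosome 13, inside 4930435F18Rik (a long noncoding RNA gene), the DMC1 signal was 280.7 and 22.9% of DMC1 reads came from B6, but 44.4% of 1052 H3K4me3 reads did (41.4 to 47.4%). On chromosome 9 at position 40337794, within the cholesterol transfer gene Gramd1b and the long noncoding RNA gene 1700110K17Rik, the signal was 276.9 with 24.0% by DMC1 and 42.2% of 1199 reads by H3K4me3 (39.4 to 45.0%). These lay close to the limit by DMC1. The hotspot at position 7584972 of chromosome 12, inside Gm32828 (also a long noncoding RNA gene), was different. It had a signal of 226.5 and 2.59% from B6 by DMC1, far from the limit, with 32.1% of 196 H3K4me3 reads from B6 (26.0 to 39.0%) and a low enrichment of 3.48.

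The hotspots with the most H3K4me3 also lay near the limit by DMC1. The highest enrichment, 22.8, was on chromosome 15 at position 98853014 within Kmt2d, itself an H3K4 methyltransferase gene, with 21.4% from B6 by DMC1 and 53.2% of 538 reads by H3K4me3 (48.9 to 57.3%). The next lay on chromosome 11, at position 77913897 inside Gm11190, a long noncoding RNA gene (20.9, with 21.3 and 43.6%) and at position 89146027, 20.8 kb from Gm38759 (18.9, with 23.9 and 56.5%). Their DMC1 signals of 55.8, 44.1 and 50.6 lay between the median and the upper quartile. Where enrichment was above 7.33, 19.5% of SPRT-cut hotspots were below 25% by H3K4me3, against 35.6% where it was between 4.44 and 7.33 and 33.2% where it was up to 4.44. The shares over all humanized hotspots in these enrichment ranges were not computed, so the lower share is not read as particular to SPRT-cut hotspots. Above 7.33 the median DMC1 share from B6 of SPRT-cut hotspots was 13.8%, as over all 614 hotspots, so nearness to the limit held for the 3 named.

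HUM/STUS carries the same humanized allele and the same B6 chromosomes, with STUS in the place of SPRT, and its B6 fraction and DMC1 signal were not used in the rule. Whether this library was among the mice compared for the attribution of alleles is not given in the sources used here. Of the 614 hotspots, 255 (41.5%, 37.7 to 45.5%) were found there as humanized hotspots with centers within 500 bp, against 73.7% of all 3302 humanized hotspots with a fraction. The share was 76.1% (73.8 to 78.2%) for matched and 86.6% (84.6 to 88.3%) for B6-cut hotspots. On 19 of 19 autosomes SPRT-cut hotspots were found less often than matched ones. The order held within ranges of DMC1 signal. Above 47.7, 52.5% of SPRT-cut (46.4 to 58.6%), 93.1% of matched (90.6 to 95%) and 97.0% of B6-cut hotspots were found, between 24.4 and 47.7 the shares were 35.9, 82.7 and 87.7%, and up to 24.4 they were 30.3, 51.7 and 78.3%. Most SPRT-cut hotspots, 359, were not found as humanized hotspots in the library without SPRT, among them 121 of the 255 with a DMC1 signal above 47.7. With hotspots of any allele counted, 44.5% of the 614 were found, against 77.3% of all.

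Among the hotspots found, 243 had a B6 fraction in HUM/STUS. It was below 25% at 126 (51.9%, 45.6 to 58.1%), against 9.84% of all humanized hotspots found there with a fraction. The share depended on the limit and the signal in HUM/SPRETUS. It was 78.5% for hotspots below 10% from B6 by DMC1, and it was 75% where the DMC1 signal was up to 24.4, 55.4% between 24.4 and 47.7 and 42.6% above that. Over all humanized hotspots found there with a fraction, the shares in these signal ranges also fell, from 12.0 to 9.82 and 8.39%. A further 104 (42.8%) were matched in HUM/STUS, against 64.6% of all, and 13 (5.35%) had over 75% from B6, against 25.6%. Of matched and B6-cut hotspots, 6.65 and 3.01% were below 25% there. At these 126 hotspots the low use of the B6 homolog was thus seen beside another strain. Spearman's rho between the DMC1 shares of the hybrids was 0.448 over the 243 hotspots and 0.421 over all 2267 found with a fraction, which share the B6 chromosome.

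**Figure D4:**
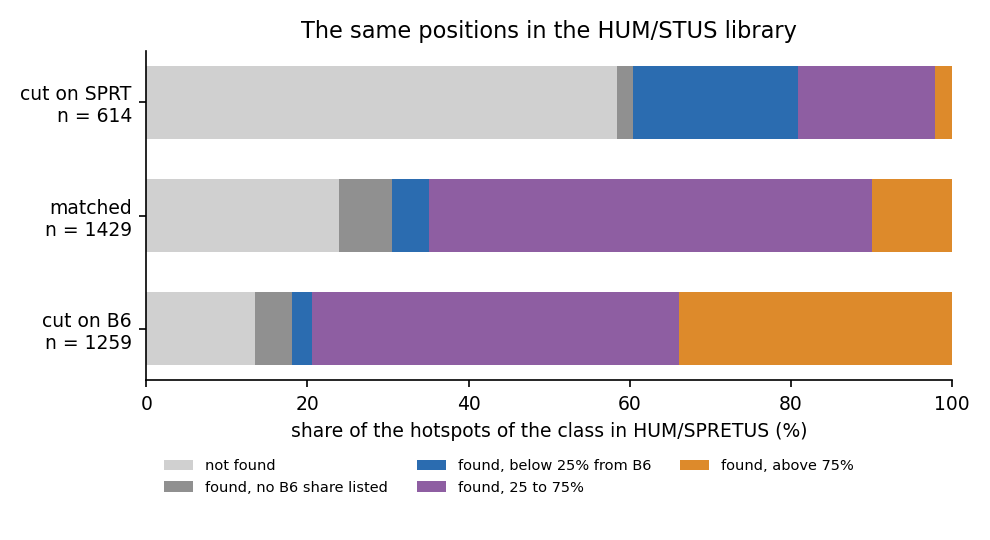
Percentage of humanized hotspots of HUM/SPRETUS that were found in the HUM/STUS library within 500 bp, by the homolog cut in HUM/SPRETUS and by the share of DMC1 reads from B6 in HUM/STUS. Of SPRT-cut hotspots 41.5% were found, against 76.1% of matched and 86.6% of B6-cut ones.

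H3K4me3 in HUM/SPRETUS differed with what was seen in HUM/STUS. The 126 hotspots below 25% in both hybrids had a median H3K4me3 share from B6 of 27.2% (22.1 to 29.4%) and an enrichment of 4.85 (4.28 to 5.33). The 104 that were matched in HUM/STUS had 44.3% (42.2 to 46.1%) and 7.38 (6.82 to 8.49). These groups also differed in the DMC1 share from B6 in HUM/SPRETUS itself, with medians of 10.5 and 18.2%, and the H3K4me3 share follows that value. Their parts were not separated. The 359 hotspots not found had 30.7% (29.2 to 32.5%) and 4.41 (4.20 to 5.03), and their DMC1 signal had a median of 33.9, while that of the 255 found was 51.8.
Examples were chosen by DMC1 signal. The hotspot near Rnf122 had 1.24% from B6 in HUM/STUS, whereas those within 4930435F18Rik and Gramd1b had 53.8 and 45.5%, and their H3K4me3 shares in HUM/SPRETUS had been 9.26, 44.4 and 42.2%. The hotspot within Gm32828 had 6.03% and that within Fig4 2.53%. Those within St6galnac3 and Zdhhc14 were not found in HUM/STUS, and the one at position 151663593 of chromosome 3 was found with no fraction listed.

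Overlap with hotspots of hybrids without the humanized allele was rare. Within 500 bp, 2 of the 614 hotspots had a hotspot of any allele in B6/SPRETUS (0.326%, upper bound 1.18%) and 1 in CAST/SPRETUS (0.163%, upper bound 0.917%), against 0.394 and 0.303% of all humanized hotspots with a fraction. The authors attributed hotspots to alleles by comparison with other mice, so few overlaps follow in part from that step. Named after their values were seen, the 2 lay on chromosome 2 at position 60875042 within the RNA-binding protein gene Rbms1, with 9.35% from B6, and on chromosome 15 at position 87054683, 42.8 kb from A930027H12Rik, with 20.5%. In HUM/STUS these had 80.9 and 90% from B6. The hotspot shared with CAST/SPRETUS, named in the same way, lay on chromosome 3 at position 138800022 within the tetraspanin gene Tspan5, with 16.8% from B6.

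SPRT-cut hotspots were spread over all 19 autosomes, from 21 on chromosome 19 to 46 on chromosome 4. As a share of humanized hotspots with a fraction they ranged from 15.4% on chromosome 2 (11.5 to 20.4%) to 24.2% on chromosome 16 (17.4 to 32.6%). The interval of each of the 19 autosomes held the overall 18.6%, so no autosome was distinguishable at this number of hotspots. B6-cut hotspots were more numerous than SPRT-cut ones on 19 of 19 autosomes. The share of SPRT-cut hotspots below 25% by H3K4me3 ranged from 13.8% on chromosome 6 (4 of 29) to 48.5% on chromosome 5 (16 of 33). It rests on fewer hotspots per autosome than the share of SPRT-cut hotspots, so a wider range follows from the smaller numbers. The intervals of chromosome 5 (32.5 to 64.8%) and chromosome 1 (46.5%, 32.5 to 61.1%) lay above the overall 30.3% and those of the other 17 held it. Among 19 intervals of 95%, about 1 misses by its construction.

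**Figure D5:**
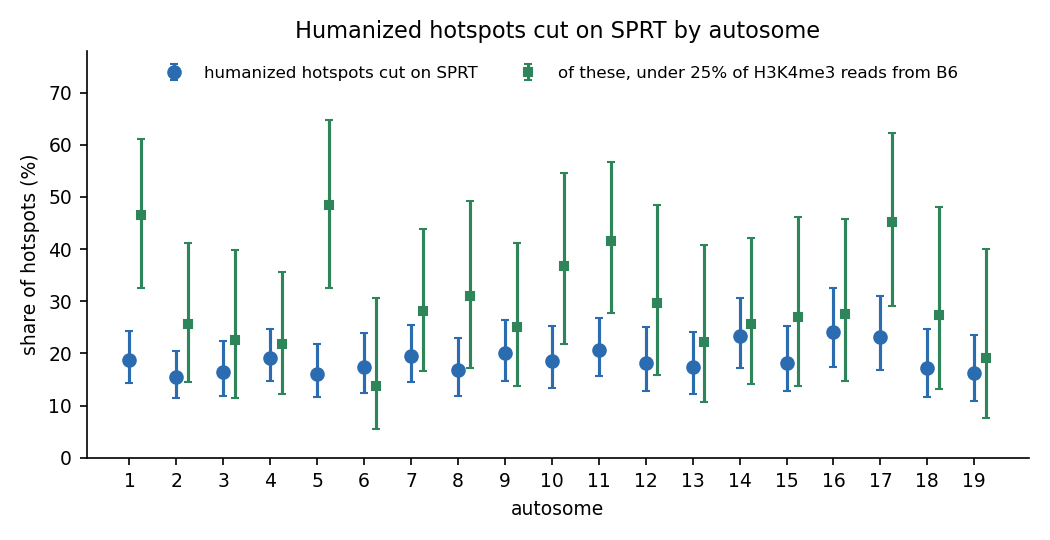
By autosome, the percentage of humanized hotspots with a DMC1 fraction that were cut on SPRT (circles) and the percentage of these with under 25% of H3K4me3 reads from B6 (squares), with 95% Wilson intervals. The first ranges from 15.4 to 24.2% and the second from 13.8 to 48.5%.

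Along the chromosomes, with each autosome divided into equal parts between its first and last hotspot, 33.9% of SPRT-cut hotspots (30.2 to 37.7%) lay in the part nearest the centromere, 27.7% (24.3 to 31.4%) in the middle and 38.4% (34.7 to 42.3%) in the distal part. For all humanized hotspots with a fraction the shares were 32.3, 30.01 and 37.7%. The nearest humanized hotspot with a fraction was itself SPRT-cut for 95 of 614 (15.5%, 12.8 to 18.5%), and over all 3302 for 18.1%, a share that this interval holds, at median distances of 181.7 and 175.6 kb.

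Genes contained 421 of the 614 hotspot centers (68.6%, 64.8 to 72.1%), against 68.0% of all humanized hotspots with a fraction, and 384 (62.5%) were in protein-coding genes, against 60.7%. Leaving out chromosome 18, for which no starts were used here, 6 of 592 (1.01%, 0.465 to 2.19%) lay within 1 kb of a gene start, against 1.23% of all, and the median distance was 27724 bp (24040 to 32087), against 26812 bp over all. By these shares and distances SPRT-cut hotspots were placed much like other humanized hotspots. Beside that of Gm17619, these 6 were near the starts of the transcription factor gene Klf7, the formin gene Diaph3, Fam83f, Gm20742 and Smc5, a gene of the SMC5/6 complex that acts in DNA repair. At Smc5 60.8% of 969 H3K4me3 reads came from B6 against 17.3% of DMC1 reads, and at Diaph3 24.6% of 667 against 6.70%. H3K4me3 of an active promoter adds to the mark that PRDM9 places and cannot be told apart from it here.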

How the data were processed

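DMC1 libraries and H3K4me3 ChIP and input samples were grouped by the Prdm9 genotype in their labels. The submitters' processing notes name BWA and mm10, with no version of BWA. From single-stranded reads the authors called hotspots de novo, attributed each to a Prdm9 allele and used SNPs to place reads on homologs, giving 1 deposited table per genotype. The deposited DMC1 signal and the whole-number ChIP and input coverage are signals, and scaling of the DMC1 signal to depth is not given in the sources used here. The deposited B6 values for DMC1 and H3K4me3 are each a fraction of reads, and only H3K4me3 comes with deposited counts of SNP-carrying reads. The authors' enrichment is a ratio of ChIP to input whose formula is not given in the sources used here. The tables hold 23 further columns of values, the authors' p-values, marks for sharing and measures not needed here, which were not used.

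Hotspots were read with Python 3.11.15, pandas 2.3.3 and numpy 2.4.6, intervals came from scipy 1.17.1 and plots from matplotlib 3.10.9. Fractions were turned into percentages. At least 20 SNP-carrying reads were required. Hotspots of different libraries were paired by the nearest center within 500 bp. Signal and enrichment were compared only within a table. Gene positions came from RefSeq GRCm38.p6, the reference of mm10. Interval coverage and pairing were tested on simulated data. No test between classes was made. Hotspots named were the 8 members with the largest DMC1 signal, the 3 with the largest signal among those with at least 25% of H3K4me3 reads from B6 and 20 reads, the 3 with the largest enrichment, the 3 with the largest signal among those found in HUM/STUS, and the 3 nearest to the limit on either side. All other hotspots named, with the 6 near gene starts, were named after their values were seen. Members and lists were chosen with earlier results of these data known. Alternatives changed limits, matched range, weights, read minimum, pairing distance and signal minimum.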

Additional observations from a re-analysis of the deposited data

How the results depend on the processing

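Of 26 alternatives to 10 values, 6 stayed within the 95% interval of the value as reported (for ratios, that of the SPRT-cut median over the matched median). The share of humanized hotspots below the limit, 18.6%, became 6.36% below a limit of 10% and 34.3% below 40%, 21.0% when weighted by DMC1 signal, 13.7% with hotspots lacking a fraction in the denominator and 22.4% at hotspots with a DMC1 signal of at least the table's median of 42.7. The ratio of SPRT-cut to matched median DMC1 signal, 1.17, became 1.82 with the limit of 10%, and that of enrichment, 0.745, became 0.772 with that limit and 0.696 with matched taken as 40 to 60%. The share of members below 25% by H3K4me3, 30.3%, became 63.3% with the limit of 10%, 37.9% when weighted, 38.6% at the stronger hotspots and 54.7% when the H3K4me3 limit was raised to 34.7% by the median offset of matched hotspots, an alternative chosen after seeing the data. With the same offset the share of B6-cut hotspots above their limit, 86.7% above 75%, became 65.4% above 84.7%. The share found in HUM/STUS, 41.5%, became 37.5% within 250 bp and 51.1% at the stronger hotspots. The share of those found that were below 25% there, 51.9%, became 78.5% with the limit of 10% and 42.8% at the stronger hotspots. The difference between SPRT-cut and B6-cut hotspots in the median H3K4me3 share of the less cut homolog, 21.2 points, became 1.82 with the offset of matched hotspots taken off the B6 share, also chosen after seeing the data. At equal DMC1 shares it reversed, from 13.8 to -5.59 points at 5 to 10% and from 18.02 to -1.38 at 20 to 25%, with its interval that of the SPRT-cut median. The same offset was used at all DMC1 shares, although it was not constant over matched hotspots. Inside a gene were 68.6%. Within 1 kb of a gene start were 1.01%, another quantity that is left out of the tally. Ratios kept their side of 1 under each alternative run. The cause of these moves was not tested.

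Leaving out a replicate was not run, since each genotype has 1 DMC1 library and H3K4me3 has 1 column. No paired test was run, since no test between classes was made. Differences between the assays were taken within hotspots and described only. The search for the human motif around all hotspot centers, with its alternatives, was not run, since only promoter sequence was used here. The unknown depth of the DMC1 fraction leaves the membership of hotspots near 25% and of weak hotspots uncertain. Whole testis and 1 library per genotype limit the rest, and an effect of the B6 reference was not tested.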

Other observations

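Humanized hotspots for which no DMC1 fraction was listed, 1183 in number, lie outside the rule, but their H3K4me3 reads were assigned to homologs. Of the 1150 with at least 20 SNP-carrying reads, 66 (5.74%, Wilson interval 4.54 to 7.24%) had under 25% of them from B6. Over all 3302 humanized hotspots with a DMC1 fraction the share was about the same, 5.69%. The 66 had a median DMC1 signal of 62.9 (46.2 to 71.0) and a median enrichment of 5.38 (4.71 to 6.16). These values were near those of the members below 25% by H3K4me3, 54.4 and 4.77. In HUM/STUS 28 of the 66 were found (42.4%, 31.2 to 54.4%), against 63.1% of all 1183. All 26 with a fraction there had under 25% of DMC1 reads from B6 (lower Wilson bound 87.1%), against 135 of 666 (20.3%) for all found hotspots that lacked a fraction in HUM/SPRETUS and 9.84% for those that had a fraction. Of the members below 25% by H3K4me3, 34.9% were found in HUM/STUS. Among those with a fraction there, 58 had under 25% of DMC1 reads from B6, 4 had 25 to 75% and 1 had over 75%.

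Seen from the other hybrid, 626 humanized hotspots of HUM/STUS had under 25% of DMC1 reads from B6, and 358 of them (57.2%, 53.3 to 61.0%) were humanized hotspots in HUM/SPRETUS, against 70.5% of matched and 71.7% of B6-cut hotspots of HUM/STUS. Where a fraction was listed in both, 126 of 223 (56.5%, 49.9 to 62.8%) were SPRT-cut, and 7.10% of those matched in HUM/STUS were. SPRT-cut hotspots of HUM/SPRETUS were found in the other library less often, at 41.5%. No test of this difference was made, and the libraries called different numbers of humanized hotspots on the autosomes, 4729 in HUM/STUS and 4485 in HUM/SPRETUS.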
